A study of Cucumis sativus with 4 samples.

Results

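Among 20000 genes listed for young cucumber (Cucumis sativus) fruits, 91 formed a graded group that read highest in short fruits and lowest in long fruits. Cucumber fruits grow first mainly by cell division and then by cell expansion, and both the number of cells along the fruit and their elongation contribute to its length. Cortical microtubules guide the direction in which a plant cell expands, and microtubule genes and transcription factors are the classes that the study's title names. Near-isogenic lines are bred to share most of their genome, so that a trait such as fruit length can be compared on a similar background, but they can still differ at other genes in the retained segments.

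The fruits came from line 409, which bears short fruits, and from its near-isogenic line 408, which bears long fruits. Both lines were grown without a described treatment in a greenhouse, and their fruits were picked together on 1 day. Each line was represented by 2 libraries, and for each library 3 to 5 fruits, each 2 to 4 cm long, were pooled across plants. The spread between libraries is therefore a spread between pools and not between single fruits. Values are RPM, the share of a library's reads that fall on a gene, scaled so that all listed genes sum to 1000000, and they are not divided by gene length. A higher RPM in 1 gene than in another thus means more reads, not more transcripts. The genes are listed by ID alone, and 0 of the 91 IDs matched the reference table of cucumber genes, so the products of these genes are not known here and the tissue could not be checked against marker genes. Whether any of the 91 encodes a microtubule protein or a transcription factor was not analysed here.

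The 91 genes were chosen by their own values in all 4 libraries. A gene had to reach 20 RPM or more in 409 replicate 2 and 5 times or more its level in 408 replicate 2. It had to be at least 1.3 times but under 2 times as high in 409 replicate 2 as in 409 replicate 1, higher in 409 replicate 1 than in 408 replicate 1, and at least 1.3 times as high in 408 replicate 1 as in 408 replicate 2. Its mean over the libraries had to be under 500 RPM. The order of the libraries, the direction between the lines and the spread within each line are therefore given by the choice and are described without a test. Of the 17391 genes tested, which are those that reach 1 RPM in no fewer than 2 libraries, 19.2% had the same order of libraries as the 91 genes and 29.4% had the exact reverse. In both orders the replicate 2 libraries lie at the ends. The estimated depth was 12256000 to 13808000 reads per library.

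In every one of the 91 genes the level stepped down through the 4 libraries. The median over the genes was 119.1 RPM in 409 replicate 2, 73.4 RPM in 409 replicate 1, 38.2 RPM in 408 replicate 1 and 15.8 RPM in 408 replicate 2. The group covered a wide range of read levels, with gene means over the libraries between 10.2 and 430 RPM. Of the 91 genes, 29 had a mean under 30 RPM, 28 had a mean of 30 to under 100 RPM and 34 had a mean of 100 RPM or more. None was close to absent in any library. The lowest value of any member was 2.7 RPM, in 408 replicate 2, which corresponds to about 37 reads and an exact Poisson 95% interval of 1.89 to 3.69 RPM that covers counting error only. In that library 14 of the 91 genes were under 5 RPM. In whole fruits, fewer cells of a type and less RNA per cell cannot be told apart as sources of such a lower level.

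**Figure D1:**
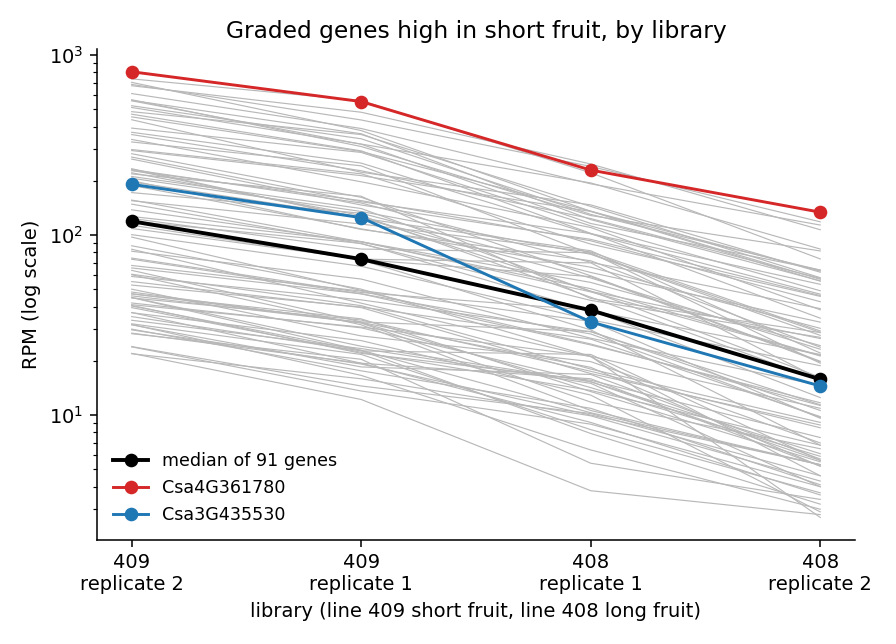
RPM on a log scale in the 4 libraries, those of line 409 on the left and those of line 408 on the right, for each of the 91 genes (grey), their median (black) and the 2 genes described by ID. The median steps down over the libraries, at 119.1, 73.4, 38.2 and 15.8 RPM, and every grey line falls at each step, as the choice of genes requires.

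Together the 91 genes took 1.81% of all RPM in 409 replicate 2 and 1.16% in 409 replicate 1, against 0.559% in 408 replicate 1 and 0.246% in 408 replicate 2. Both pools of the short-fruited line gave a larger share of their reads to this group than either pool of the long-fruited line, and the pools of each line differed as well.

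Csa4G361780 had the highest mean read level of the group. It measured 805.8 RPM in 409 replicate 2 and 550.5 RPM in 409 replicate 1, against 229.2 RPM in 408 replicate 1 and 133.8 RPM in 408 replicate 2. Both 409 libraries were above both 408 libraries, and the gap between the replicate 1 libraries, at 2.40 times, was wider than either gap within a line, at 1.46 times in 409 and 1.71 times in 408. Its mean was 678 ± 181 RPM for 409 and 182 ± 67.5 RPM for 408 (SD, n = 2 each), which is a ratio of 3.74. The log2 fold change of RPM + 1, 409 minus 408, was 1.92 with a standard error of 0.34 (limma, Benjamini-Hochberg adjusted p = 0.0317). With 1 library left out in turn it was 1.53 to 2.31, and limma gave adjusted p values of 0.079 to 0.213.

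Csa3G435530 had the largest log2 fold change of the group. It measured 191.1 RPM in 409 replicate 2 and 124.8 RPM in 409 replicate 1, against 32.9 RPM in 408 replicate 1 and 14.5 RPM in 408 replicate 2. The widest step lay between the replicate 1 libraries, which were 3.79 times apart, or 51.7% of the log2 range between the end libraries. The libraries within a line were 1.53 times apart in 409 and 2.27 times in 408. Its mean was 158 ± 46.9 RPM for 409 and 23.7 ± 13.0 RPM for 408 (SD, n = 2 each), which is a ratio of 6.67. The log2 fold change of RPM + 1 was 2.76 with a standard error of 0.42 (limma, Benjamini-Hochberg adjusted p = 0.0317). It was 2.20 to 3.33 with 1 library left out in turn, at limma adjusted p values of 0.0735 to 0.213. For both genes these p-values are descriptions, because the genes were chosen on the same 4 values.

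The grade between the ends differed in width from gene to gene. From 408 replicate 2 to 409 replicate 2 the 91 genes spanned a median of 7.03 times, and 18 of them spanned at least 10 times, 46 spanned 6 to under 10 times and 27 spanned under 6 times. The widest span was 18.1 times, in a gene of the chromosome 3 group with 83.3 RPM in 409 replicate 2 and 41.8 RPM in 409 replicate 1, against 21.1 RPM in 408 replicate 1 and 4.6 RPM in 408 replicate 2. A gene of the chromosome 6 group followed at 17.7 times, with 120.3 and 72.6 RPM in 409 replicates 2 and 1, against 29.7 and 6.8 RPM in 408 replicates 1 and 2. In both of these genes 408 replicate 2 lay far below the other 3 libraries.

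The step within line 408 was usually the widest. The median ratio was 1.55 for 409 replicate 2 over 409 replicate 1, which the choice kept between 1.3 and 2. It was 1.98 for 409 replicate 1 over 408 replicate 1, which was only required to exceed 1, and 2.30 for 408 replicate 1 over 408 replicate 2, which had no upper bound. The step within 408 exceeded the step within 409 in 87 of the 91 genes. Of the 3 steps the one within 408 was the widest in 57 genes, the one between the replicate 1 libraries was the widest in 34, and the one within 409 was the widest in 0. Part of this order follows from the upper bound of 2 on the step within 409. The step within 408 reached 3 times or more in 16 genes and 4 times or more in 6. The most extreme was a gene of the chromosome 7 group at 7.85 times, with 41.0 and 30.8 RPM in 409 replicates 2 and 1, against 21.2 and 2.7 RPM in 408 replicates 1 and 2. Its level in 408 replicate 1 was nearer to 409 replicate 1 than to the other 408 library.

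**Figure D2:**
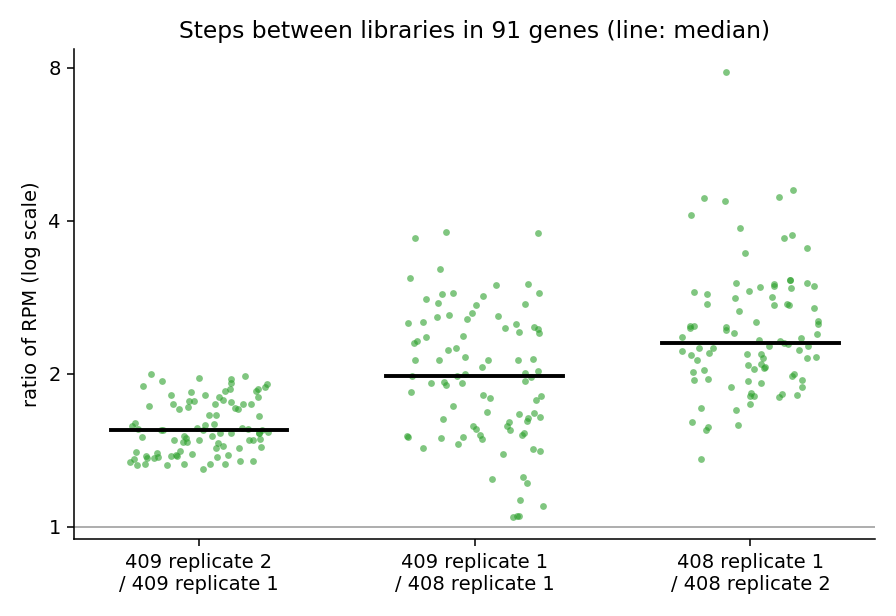
Ratio of RPM between successive libraries on a log scale, with 1 dot per gene for the 91 genes and a bar at the median. The medians are 1.55 within line 409, 1.98 between the replicate 1 libraries of the lines and 2.30 within line 408.

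The replicate 1 libraries, which lie in the middle of the grade, separated the lines in some genes and hardly at all in others. The ratio of 409 replicate 1 to 408 replicate 1 ranged from 1.05 to 3.79. It was at least 2 in 43 of the 91 genes and at least 3 in 5, and it was under 1.3 in 8. The genes under 1.3 had a wide step within 408, at 2.75 to 4.43 times. In 1 of them, in the chromosome 3 group, the levels were 123.5 RPM in 409 replicate 2 and 83.5 RPM in 409 replicate 1, against 79.7 RPM in 408 replicate 1 and 19.4 RPM in 408 replicate 2. Here the replicate 1 libraries were close to each other, 409 replicate 2 was 1.48 times 409 replicate 1, and 408 replicate 2 was far lower. The single member whose ID carries UN in place of a chromosome number was of the same kind, with 108.6 and 73.4 RPM in 409 replicates 2 and 1, against 70.0 and 15.8 RPM in 408 replicates 1 and 2. Across the 91 genes the step between the replicate 1 libraries and the step within 408 ran against each other (Spearman's rho = -0.44 across genes). The choice itself favours this, since a span of at least 5 times with a step under 2 within 409 leaves a small middle step only to genes with a wide step within 408. The measures also share the value of 408 replicate 1, and genes are not independent replicates.

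The members were then looked up in the fit over all tested genes. Of the 91 genes, 56 passed an adjusted p of 0.05 with higher levels in 409 (limma on log2(RPM + 1), Benjamini-Hochberg adjusted over 17391 genes), beside 10.1% of all tested genes in that direction. That both 409 libraries lie above both 408 libraries was required of all 91 and held for 34.9% of all tested genes. Because the choice used this contrast, neither share says anything about the group. A split of the members by the middle step is made of the same values as the fit, with the step within 409 bounded, so the following counts describe the members and are no separate evidence. Among the 15 genes whose replicate 1 libraries differed by under 1.5 times, 0 passed, with limma adjusted p values of 0.067 to 0.172. Of the 33 genes at 1.5 to under 2 times, 14 passed. All but 1 of the 20 genes at 2 to under 2.5 times passed, or 19, and so did 23 of the 23 genes at 2.5 times or more. The median log2 fold change over the 91 genes was 1.81, with a range of 1.21 to 2.76, against a median of -0.06 over all tested genes. The median spread within a line was 0.64 on the log2(RPM + 1) scale in the members and 0.18 in all tested genes. The choice sets a minimum for this spread by steps of at least 1.3 within each line. The step within 408, which had no upper bound, was wider, at a median of 2.30. With any 1 of the 4 libraries removed from the limma fit, 0 genes of the table passed. The median log2 fold change of the members was then 2.36 without 408 replicate 1 and 2.12 without 409 replicate 1. It was 1.23 without 408 replicate 2 and 1.51 without 409 replicate 2, against -0.095 to -0.026 over all tested genes. The rise without a middle library of the grade and the fall without an end library follow from the choice.

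**Figure D3:**
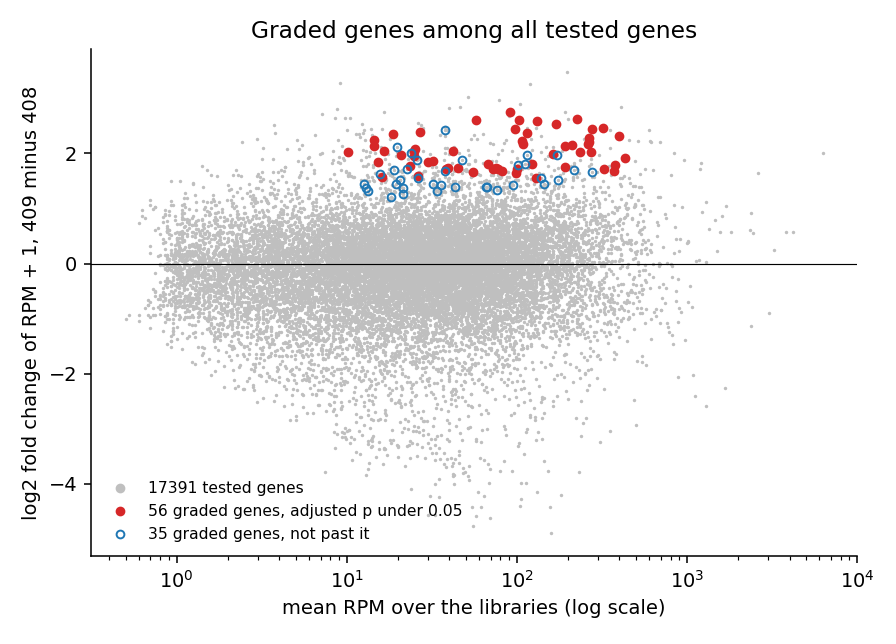
Log2 fold change of RPM + 1, 409 minus 408, against the mean RPM on a log scale for the 17391 tested genes (grey), with the members that passed an adjusted p of 0.05 in limma (56, filled) and those that did not (35, open). The members lie between 1.21 and 2.76 over the whole range of their read levels.

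The median span between the ends did not rise or fall steadily over classes of read level, while genes with a wider middle step tended to have more reads. From the narrowest to the widest class of the middle step given above, the median of the gene means was 34.1, 55.0, 72.1 and 106.6 RPM. In the members with a mean under 30 RPM the median span between the ends was 7.78 times, in those with 30 to under 100 RPM it was 6.24 times, and in those with 100 RPM or more it was 7.93 times. The median ratio of 409 replicate 1 to 408 replicate 1 was 1.92, 1.91 and 2.28 in these classes. The members that passed the fit numbered 14 of 29, 17 of 28 and 25 of 34 in the same order. Over all tested genes 10.1% passed with higher levels in 409, and this share was not computed by class of level. The counts by class therefore do not show a trend that is particular to the members. Across the 91 genes the rank correlation between mean RPM and the span was 0.06, and between mean RPM and the step of the replicate 1 libraries it was 0.23 (Spearman's rho across genes, given as a description). The mean shares its libraries with both of these measures.

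Fewer genes had a graded pattern in this direction than in the reverse. The same conditions with the lines exchanged, which ask for high levels in 408 replicate 2 and low levels in 409 replicate 2, were met by 495 genes, 5.44 times as many. These genes took 0.549% of RPM in 409 replicate 2 and 1.24% in 409 replicate 1, against 3.48% in 408 replicate 1 and 5.43% in 408 replicate 2. The excess stayed but narrowed after other scalings of the libraries. The counts were 122 genes toward 409 against 451 toward 408 after median-of-ratios rescaling and 108 against 392 after quantile normalization. Of the 91 members, 83 still met every condition after each of these scalings, and in all 91 both 409 libraries stayed above both 408 libraries.

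The limits on level and span removed most genes in both directions, and the share lost at the step within the high line differed. Toward 409, 244 genes met the limit of 20 RPM together with the span of 5 times, and toward 408 the matching number was 618. Within line 408, 239 of the 244 genes differed by at least 1.3 times, or 98.0%, and within line 409, 128 did, or 52.5%. In the 618 genes toward 408 the step of 1.3 was met by 97.7% within line 409, which is the low line there, and by 86.2% within line 408. In both directions the line with the low level therefore met the step within a line almost throughout, and the line with the high level met it in 52.5% of genes toward 409 and in 86.2% toward 408. The span is set between the replicate 2 libraries, so it favours genes in which replicate 2 is extreme within its line. Over all 20000 listed genes, 4176 met the step within 408 and 2143 the step within 409 as asked toward 409. For the reverse direction such counts over all genes were not made. The shares above come from the same 4 libraries and were not tested.

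The 91 genes also divided the way from low to high differently from the 495 genes of the reverse pattern. On the log2 scale the median share of the whole span was 21.2% for the step within the high line, 36.0% for the step between the replicate 1 libraries and 42.8% for the step within the low line. In the reverse pattern the medians were 17.6%, 45.6% and 36.4%. The step between the replicate 1 libraries was the widest in 37.4% of the 91 genes and in 69.5% of the 495 genes. It reached 2 times in 47.3% of the 91 genes and in 86.1% of the 495 genes. The 495 genes also spanned more between the ends, at a median of 10.9 times against 7.03 times. Their median in the lowest library was 5.2 RPM, against 15.8 RPM. With the same bound on the step within the high line, a wider span leaves more to the other steps. The counts at 2 times are therefore not a like comparison. For the middle step the quartile ranges of the share of the span overlap, at 24.6% to 43.1% in the 91 genes and 39.6% to 51.0% in the 495 genes. The difference was not tested because both sets were chosen on these values.

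**Figure D4:**
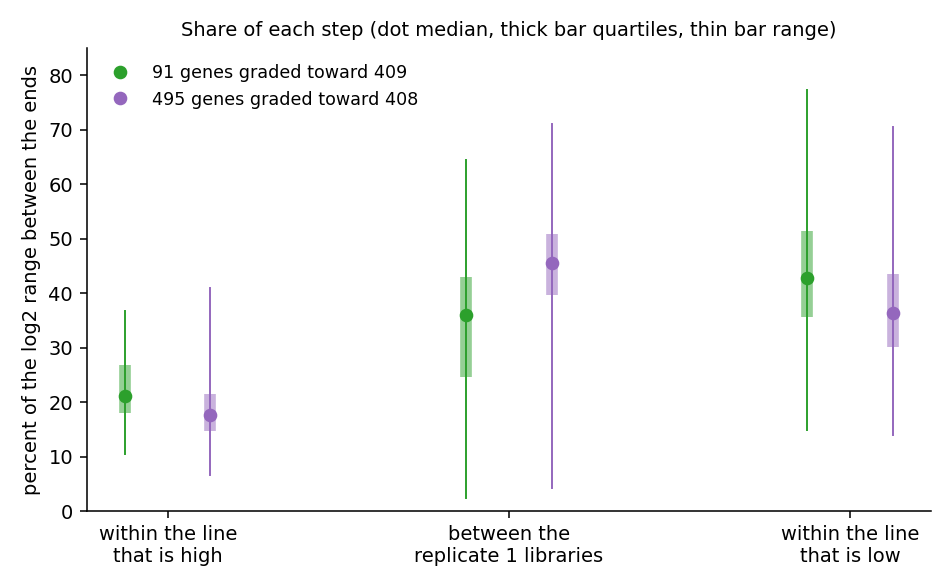
Percent of the log2 range between the end libraries taken by each of the 3 steps, in the 91 genes graded toward 409 and the 495 genes graded toward 408, with the median as a dot, the quartiles as a thick bar and the range as a thin bar. The middle step takes a median of 36.0% in the 91 genes and 45.6% in the 495 genes.

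For each limit on the choice, the members just inside can be set beside the genes just outside. The member with the narrowest span, at 5.09 times, had 270.7 and 152.8 RPM in 409 replicates 2 and 1, against 101.8 and 53.2 RPM in 408 replicates 1 and 2. The nearest gene left out for its span, at 4.96 times, had 147.4 and 87.0 RPM in 409 replicates 2 and 1, against 48.2 and 29.7 RPM in 408 replicates 1 and 2. At the bottom of the range of levels the lowest member had 21.9 RPM in 409 replicate 2, and the nearest gene left out had 19.5 RPM. The span alone kept out 155 genes, the step of 1.3 within 409 kept out 109, and the level of 20 RPM kept out 64. Another 20 genes were kept out only because 409 replicate 2 was at least 2 times 409 replicate 1, 7 only because their mean was 500 RPM or more, 3 only by the order of the replicate 1 libraries and 2 only by the step within 408. The 7 genes with a high mean show that the pattern also occurs above the level set for the group, with 1073 and 605.9 RPM in 409 replicates 2 and 1, against 246.5 and 119.9 RPM in 408 replicates 1 and 2, in the gene nearest to the limit.

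The place of the genes, which the choice did not use, was read from the IDs. In IDs of this form the digit after Csa conventionally names the chromosome, and the number after the G runs along it. The members were found in all 7 chromosome groups. The chromosome 3 group held the most, with 23 genes or 25.3% of the members, and 21.0% of the 9032 genes that met the limits on level had IDs of that group. The chromosome 7 group held 15 members or 16.5%, against 9.85% of the 9032 genes, so that 1.69% of its genes in this range of levels were members. The chromosome 5 group held 5 members or 5.50%, against 13.1% of the 9032 genes, and 0.422% of its genes were members. The other groups held 16 on chromosome 6, 13 on chromosome 1, 10 on chromosome 2 and 8 on chromosome 4. In the 495 genes of the reverse pattern the order was different, with 21.2% on chromosome 6, 16.6% on chromosome 3, 13.5% on chromosome 5 and 7.88% on chromosome 7. These shares rest on few members per group and were not tested.

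**Figure D5:**
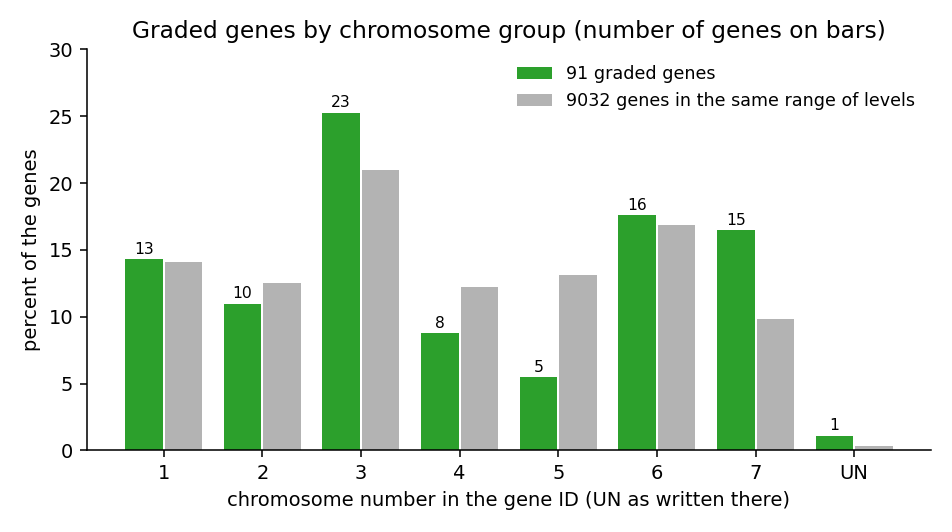
Percent of the 91 graded genes (green, number of genes above the bar) and of the 9032 genes within the same limits on level (grey) whose ID carries each chromosome number. The members exceed the grey bar most on chromosome 7, at 16.5% against 9.85%, and fall short of it most on chromosome 5, at 5.50% against 13.1%.

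The read levels of the members varied between the chromosome groups, without a test. The 15 members on chromosome 7 had a median of 24.7 RPM over the libraries and the 10 on chromosome 2 had 19.9 RPM, against 81.7 RPM for the 23 on chromosome 3 and 111 RPM for the 8 on chromosome 4. The spans between the ends were more alike, with medians between 5.86 times on chromosome 4 and 7.99 times on chromosome 5. The median ratio of 409 replicate 1 to 408 replicate 1 was lowest on chromosome 7, at 1.63, and between 1.89 and 2.36 in the other 6 chromosome groups.

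Several members lay side by side. Of the 91 genes, 8 were next to another member in the order of the IDs, as 4 pairs on chromosomes 3 and 7, while members make up 0.455% of all listed genes. In the reverse pattern 36 of 495 genes were next to another of their kind, or 7.27%, while they make up 2.48% of the listed genes. Most genes have a neighbour on either side, so these shares of listed genes are too low to serve as the share to expect. Among genes within the limits on level for each direction, 1.01% were members and 5.12% had the reverse pattern. The difference was not tested. Whether the sequences of neighbouring members are related was not analysed here, and reads of near-identical or overlapping neighbours may have been counted together.

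The pair with the highest levels lay on chromosome 3. The first gene of it measured 521.7 and 341.9 RPM in 409 replicates 2 and 1, against 130.1 and 63.7 RPM in 408 replicates 1 and 2. The second measured 558.9 and 364.7 RPM in 409 replicates 2 and 1, against 121.7 and 55.6 RPM in 408 replicates 1 and 2. These neighbours were nearly alike in level and in every step. Another pair on the same chromosome had 298.0 and 218.6 RPM in 409 replicates 2 and 1, against 89.0 and 45.6 RPM in 408 replicates 1 and 2, in its first gene. Its second gene had 188.4 and 108.1 RPM in 409 replicates 2 and 1, against 66.2 and 30.3 RPM in 408 replicates 1 and 2. Both pairs on chromosome 7 were lower. Their 4 genes measured 28.5 to 41.9 RPM in 409 replicate 2 and 19.4 to 30.5 RPM in 409 replicate 1, against 9.1 to 15.9 RPM in 408 replicate 1 and 3.6 to 6.8 RPM in 408 replicate 2. Within 5 listed genes of each other lay 12 members.

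Genes next to a member that are not members themselves were compared between the lines. The choice was applied to them too, and they are in this set because their own values did not meet it. Of the 153 such genes tested, 24 passed an adjusted p of 0.05 with higher levels in 409 and 30 with lower levels, in limma over all tested genes. These are 15.7% and 19.6%, beside 9.83% and 17.2% of all tested genes other than the members. Their median log2 fold change was -0.01, against -0.06 in all tested genes other than the members. By sign, 76 of the 153 were higher in 409, so about as many of these genes shared the member's direction as did not. The 8 members next to another member, all higher in 409 by the choice, are not counted here.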

How the data were processed

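Per the labels' protocols, poly(A) RNA of pooled young fruits went into strand-preserving libraries. The submitters' processing notes name TopHat as a tool, with its version, the build, the counter and the strand setting not given in the sources used here. The authors deposited RPM values with 1 column per sample, each summing to 1000000 within rounding. All columns were matched by name, and 0 were left unused.

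Depth was estimated by matching the frequencies of low RPM values to whole reads. A read is worth 0.0724 to 0.0816 RPM, below the rounding of the values, which therefore do not give back whole reads for a count test. Genes reaching 1 RPM in 2 or more libraries were fitted in limma 3.58.1 (R 4.3.3) on log2(RPM + 1) with a mean-variance trend and no covariates, with Benjamini-Hochberg adjustment and a threshold of 0.05. Such fold changes, 409 minus 408, understate the change of low genes. The smallest p of an exact permutation test of 2 libraries against 2 is 0.333, and the limma p-values depend on the spread pooled across genes. The fit and the depth estimate were also run on simulated data. The simulation for the fit drew independent noise for each library, without a grade shared by many genes. It therefore does not show how the fit behaves on graded libraries such as these.

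The members and lists were chosen with earlier results of these data known. The genes described by ID are the member with the highest mean RPM and the one with the largest log2 fold change, and members described by chromosome group alone were picked after their values were seen. Of 23999 reference genes (assembly Cucumber_9930_V3), 0 carried a listed ID, so lists by product name were not used. The other steps ran in Python 3.11.15 (pandas 2.3.3, numpy 2.4.6, matplotlib 3.10.9, scipy 1.17.1).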

Additional observations from a re-analysis of the deposited data

How the results depend on the processing

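The number of graded genes was 91 as chosen and lay between 64 and 122 for a lower limit of 10 or 40 RPM, a span of 4 or 6 times, inner steps of 1.2 times and both other scalings, but was 52 when the inner steps had to reach 1.5 times, which by construction keeps fewer genes. The limma fit was repeated with pseudocounts of 0.1 and 0.5, with a filter of 5 RPM, after both scalings and without the trend. In these fits 51 to 72 members and 4271 to 5400 genes in either direction passed, against 56 and 4738. Higher in 409, as all members are, were 1529 to 2696 of these genes, against 1757. Without a filter 0 members and 0 genes passed (smallest adjusted p = 0.0674, with 75 members and 8340 genes at an unadjusted p under 0.05). The cause was not tested. With 1 library left out both counts were 0 to 0 (smallest adjusted p = 0.0633 to 0.213, with unadjusted p under 0.05 in 39 to 91 members and 3974 to 7264 genes). These fits have fewer samples, and the spread of the lone library is taken from the pair of the other line.

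The replicate number as a block gave 33 members and 1356 genes in either direction, of which 450 were higher in 409. No label ties the number to a batch, and the deviations of same-numbered libraries correlated at -0.48 across genes. The crossed pairing, added after the data were seen, gave 91 members and 8605 genes in either direction, of which 3570 were higher in 409. It joined 409 replicate 2 with 408 replicate 1. The choice made these the higher library of their line in every member. This block therefore takes up the steps the members were chosen for, and its count of members is no evidence about them. The median log2 fold change of the members was 1.81 to 1.88 under the other settings with all libraries and 1.23 to 2.36 with 1 left out. Quantile normalization moved the median of all tested genes by 0.13 and that of the members by 0.06, and the share of calls higher in 409 was 49.9% after it, against 37.1%. Csa4G361780 ran from 1.53 to 2.31 and Csa3G435530 from 2.20 to 3.33 over all settings but the crossed pairing, which was not computed for them, with limma adjusted p values of 0.0227 to 0.213. The median ratio of 409 replicate 1 to 408 replicate 1 was 1.98 to 2.10 over the scalings, and 8 to 12 members lay near another under each definition. The planned product lists could not be tested, for want of product names. Depth limits values below about 0.245 RPM, under every value of the members.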
